A study of Sus scrofa with 7 samples.

Results

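Homeobox genes encode transcription factors that carry a shared DNA-binding fold, and many of them are switched on in sharply bounded territories of the embryonic brain. Some stay on in the adult neurons that arise there, so that their transcripts mark forebrain, hypothalamic, midbrain or hindbrain cells. FEZF1 and FEZF2, which the selection also takes, are zinc finger proteins of the forebrain and carry no homeodomain. The genes were chosen by name, as the rows of the deposited table whose symbol belongs to the HOX, NKX, LHX, LMX1, DLX, IRX, OTX, PITX, MEIS, PBX, POU, ISL, ZFHX, EN, MSX, EMX, VSX, RAX, HMX or FEZF families or to the relatives of SIX6. This gave 70 of 16991 features, each with a single row, and the authors had tested 34 of the 70. The names alone decided which rows were taken, but the gene families were chosen with earlier results of these data known. The RefSeq gene table of Sscrofa11.1 holds 125 symbols that fit the same names, and 68 of them have a row of that name here. RAX, SIX3 and the MEIS genes are among the others and are not analysed here.

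The tissue was the hypothalamus of crossbred piglets (Duroc x Landrace x Large White) at postnatal day 45, all with a T-cannula in the distal ileum. The antibiotic group, with 3 libraries, was infused with 10 mL of saline carrying ampicillin, gentamicin and metronidazole at 150, 4 and 30 mg per kg per day. The control group, with 4 libraries, was infused with 10 mL of saline alone. The study set out to ask whether this infusion changes transmitter gene expression in the hypothalamus, and its piglets numbered 12 at randomisation.

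Every level below is an FPKM of the authors' deposited table, a count of fragments scaled to transcript length and to library size. Each gene has 1 FPKM for the antibiotic libraries together and 1 for the control libraries together. The spread between piglets could therefore not be computed, and the depth of the libraries is unknown. Each log2 fold and each q, the authors' p adjusted over all features they tested, also comes from that deposited table. A gene is said to have risen or fallen where this q was under 0.05. How far that q holds the spread between piglets is not described in the sources used here. The smallest q was 0.000336, from the smallest p of 5e-05 in the authors' test. That p was shared by 2081 of the 13352 tested features, so this smallest q does not rank the genes that carry it. In a block of whole tissue, fewer cells of a type and less RNA per cell cannot be told apart.

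Of the 34 tested homeobox genes, 4 rose and 9 fell in the antibiotic group, and 21 did not pass. That makes 38.2% called, beside 41.1% of all 13352 tested features, with 11.8% risen beside 19.0% and 26.5% fallen beside 22.2%. The authors' own significant call also asks for a 2-fold change, and it took 3 rises (8.82%, beside 7.37% of all tested features) and 6 falls (17.6%, beside 8.44%). The rises were those of LHX9, POU3F3 and POU3F4, and the falls included those of DLX1, FEZF1, ISL1, LHX2 and NKX2-4. Over the tested homeobox genes the median log2 was 0.17, against -0.03 over all tested features. By region, 6 of 9 forebrain and 7 of 9 hypothalamic genes had the lower value in the antibiotic group (SIX6 by less than the printed digits show), while 7 of 8 midbrain genes had the higher value there, though no midbrain gene passed the test upwards. Over all 16991 features, 50.1% had the higher value in the antibiotic group, and over the untested features 56.0% did. These regional groupings were made from textbook knowledge with earlier results of the data known, and their counts and medians are descriptions.

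**Figure D1:**
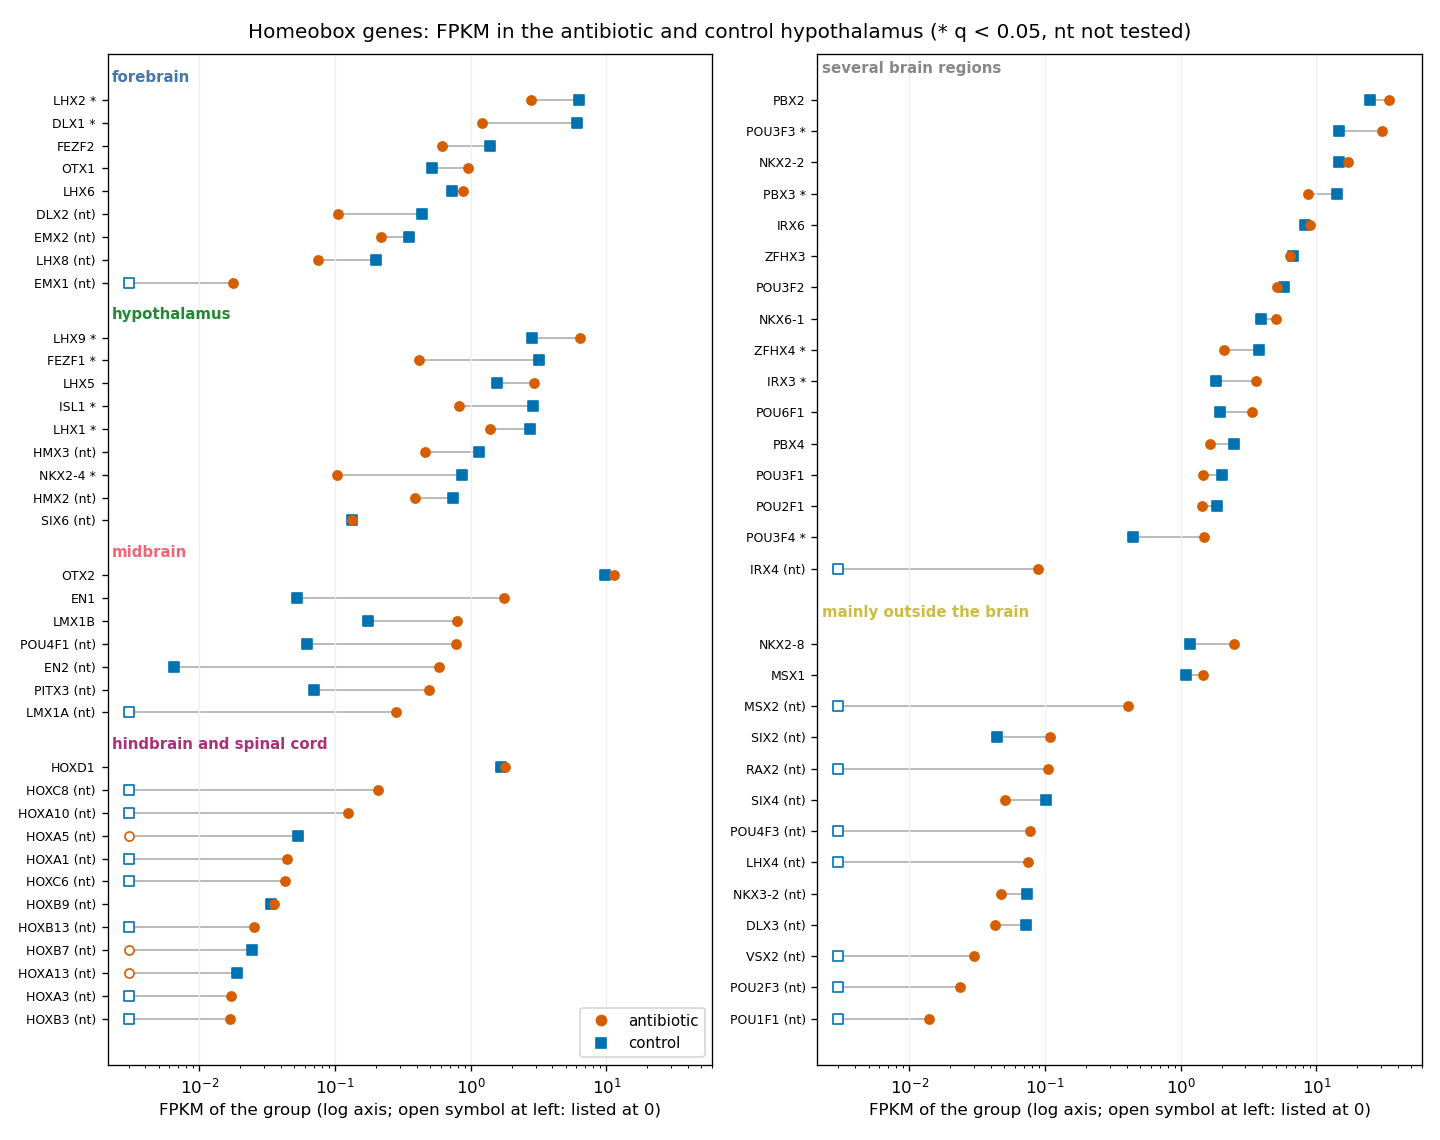
FPKM of 66 of the 70 homeobox genes in the antibiotic group (circles) and the control group (squares) on a log axis, ordered within regional groups, where open symbols at the left edge are values listed at 0, * marks q under 0.05 and nt marks genes the authors did not test. The symbols of EN1, EN2, LMX1A, LMX1B, PITX3 and POU4F1 lie with the antibiotic value to the right, and those of DLX1, FEZF1, ISL1 and NKX2-4 with it to the left.

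Genes of the hypothalamus itself mostly fell where they could be tested. Of 9 members 6 had been tested. Of these 4 fell (66.7%, beside 22.2% of all tested features), 1 rose (16.7%, beside 19.0%) and 1 did not pass. The median log2 of the tested members was -1.39. FEZF1, a zinc finger regulator of the ventromedial hypothalamus in mouse, stood at 0.413 FPKM in the antibiotic group and 3.19 FPKM in the control group, 7.72-fold lower (q = 0.000625 in the authors' table). NKX2-4, a homeobox gene of the basal hypothalamus, was at 0.103 FPKM in the antibiotic group, against 0.865 FPKM in control (8.38-fold lower, q = 0.0221 in the authors' table). Both genes were thus well under 1 FPKM in the antibiotic group.

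ISL1, a LIM homeobox factor needed for the melanocortin neurons of the arcuate nucleus in mouse, fell to 0.825 FPKM in the antibiotic group, against 2.86 FPKM in control (q = 0.00352). LHX1, which keeps the clock neurons of the suprachiasmatic nucleus coupled in mouse, fell to 1.39 FPKM in the antibiotic group, against 2.74 FPKM in control, with the same q of 0.00352. The fall of LHX1 was 1.97-fold, just short of the 2-fold that the authors ask of a significant call. LHX9, a LIM homeobox gene of the thalamus and of lateral hypothalamic neurons, was the exception and rose to 6.37 FPKM in the antibiotic group, against 2.82 FPKM in control (2.26-fold, q = 0.000625). LHX5, a gene of the mammillary area, stood at 2.93 FPKM in the antibiotic group and 1.57 FPKM in control and did not pass (q = 0.0862). The LHX genes of the hypothalamus thus moved both ways, LHX9 up and LHX1 down.

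The other 3 hypothalamic members had not been tested. HMX3 stood at 0.458 FPKM in the antibiotic group and 1.16 FPKM in control, and its neighbour HMX2 at 0.385 and 0.737 FPKM, in the same order. Both are regulators of arcuate neurons that make growth hormone-releasing hormone in mouse. SIX6, a gene of the eye and the suprachiasmatic nucleus, stood at 0.133 FPKM in both groups.

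NKX2-1, the gene that defines most of the ventral hypothalamus, was looked for under its synonym. A row named TTF1 on chromosome 7 fell to 0.838 FPKM in the antibiotic group, against 6.14 FPKM in control (7.32-fold lower, q = 0.000336 in the authors' table). TTF1 is a synonym of NKX2-1 in the RefSeq gene table of Sscrofa11.1. The TTF1 row lies 61.6 kb from NKX2-8 with no other row between, and in that RefSeq table NKX2-1 follows NKX2-8 with no other protein-coding gene between. The deposited table also gives this row the Ensembl ID of the other TTF1, a transcription termination factor on chromosome 1, whose row stood at 1.99 FPKM in the antibiotic group and 1.56 FPKM in control (q = 0.459). The chromosome 7 row is not counted among the 70 genes and was looked up after its values were known.

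Forebrain genes, grouped here for their part in the telencephalon, also lay mostly lower. Some of them, LHX2 and LHX6 among them, are also genes of hypothalamic cells, so the group does not mark the telencephalon alone. Of 9 members 5 had been tested. Of these 2 fell (40%, beside 22.2% of all tested features), none rose (beside 19.0%) and 3 did not pass. The median log2 of the tested members was -1.17. DLX1, a regulator of GABA neurons of the ventral forebrain, fell to 1.21 FPKM in the antibiotic group, against 6.05 FPKM in control (5.0-fold lower, q = 0.000336 in the authors' table). Its neighbour DLX2, whose row lies 33.7 kb away, had not been tested and stood at 0.105 FPKM in the antibiotic group and 0.435 FPKM in control. Each gene of this linked DLX set was thus lower in the antibiotic group by a fold of 4.13 or more.

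LHX2, a regulator of the cortex, the eye and the hypothalamic tanycytes, fell to 2.76 FPKM in the antibiotic group, against 6.22 FPKM in control (2.25-fold lower, q = 0.00312). FEZF2, a regulator of subcortical projection neurons, had the same fold but did not pass, at 0.611 FPKM in the antibiotic group and 1.38 FPKM in control (q = 0.0853). LHX6, a gene of cortical and hypothalamic GABA neurons, stood at 0.875 FPKM in the antibiotic group and 0.723 FPKM in control (q = 0.580). OTX1, a gene of the cortex, stood at 0.952 FPKM in the antibiotic group and 0.519 FPKM in control (q = 0.128). Among untested forebrain genes, EMX2 of the dorsal telencephalon stood at 0.217 FPKM in the antibiotic group and 0.348 FPKM in control, and LHX8 of the basal forebrain at 0.0743 and 0.201 FPKM, in the same order. The remaining one, EMX1, was listed at 0 in control and at 0.0177 FPKM in the antibiotic group.

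**Figure D2:**
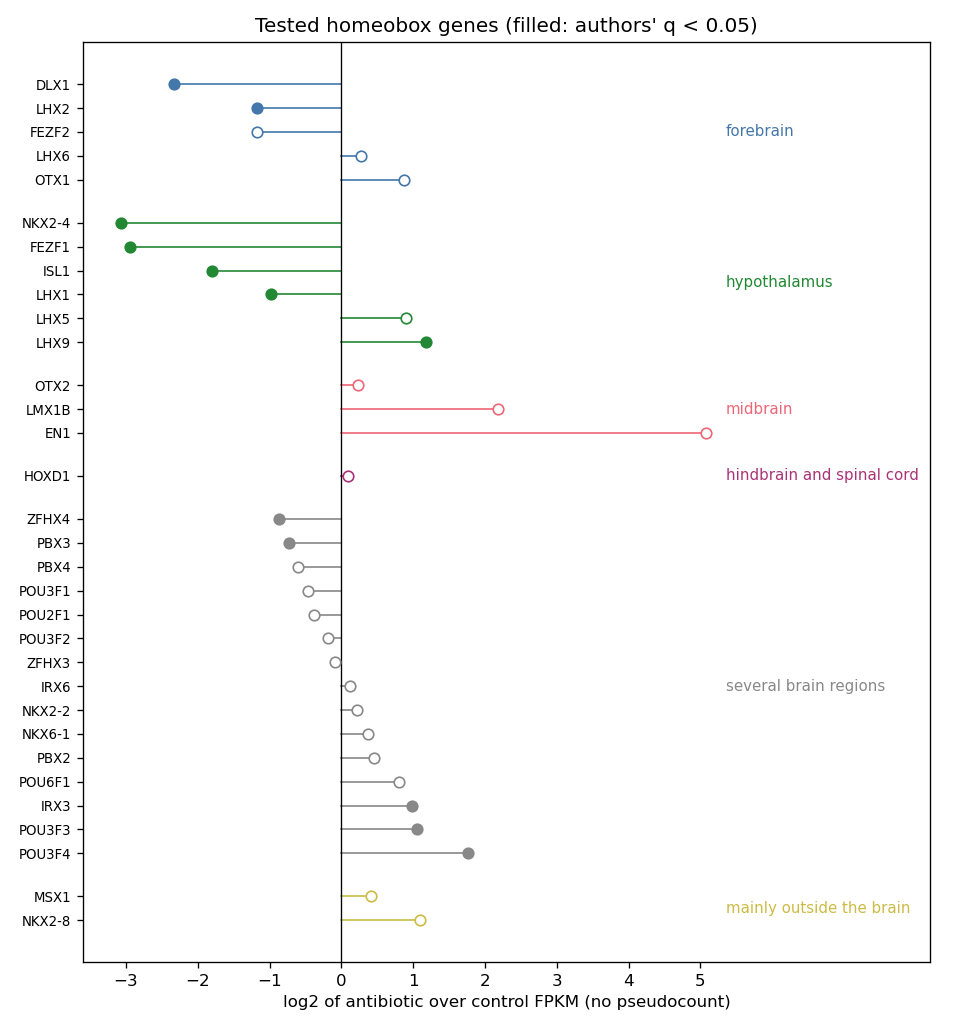
The log2 of antibiotic over control FPKM, with no pseudocount, of 32 of the 34 homeobox genes the authors tested, by regional group, with filled points for q under 0.05. The tested midbrain gene that fell is not among them. Filled points below 0 include NKX2-4, FEZF1, DLX1 and ISL1, and the open point of EN1 lies farthest to the right, at 5.07.

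Midbrain genes gave a divided picture. Of 8 members 4 had been tested. Of these 1 fell (25%, beside 22.2% of all tested features), none rose (beside 19.0%) and 3 did not pass. The median log2 of the tested members was 1.21. OTX2, which sets the rear border of the midbrain and is also strong in choroid plexus, was the most abundant of the group, with 11.4 FPKM in the antibiotic group and 9.68 FPKM in control (q = 0.381 in the authors' table). Of 5 choroid plexus markers matched by name, 4 fell (80%, beside 22.2% of all tested features). The summed level of the 5 was 126.7 FPKM in the antibiotic group and 345.2 FPKM in control. None of these markers was at 0, and TTR, the thyroid hormone carrier of the plexus, stood at 70.6 FPKM in the antibiotic group and 288.6 FPKM in control (q = 0.000336). Their part in the OTX2 value was not tested.

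The midbrain genes EN1, EN2, LMX1A, LMX1B, PITX3 and POU4F1, 6 of the 8, were all scarce and all had the higher value in the antibiotic group. EN1, an engrailed gene kept on in midbrain dopamine neurons, stood at 1.76 FPKM in the antibiotic group and 0.0524 FPKM in control, a 33.6-fold difference that did not pass (q = 0.279 in the authors' table). LMX1B, needed for serotonin and dopamine neurons, stood at 0.794 FPKM in the antibiotic group and 0.174 FPKM in control and did not pass either (q = 0.162). In control, none of the 6 reached 0.2 FPKM.

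The 4 untested midbrain genes had the same direction. EN2, an engrailed gene of the midbrain and cerebellum, stood at 0.584 FPKM in the antibiotic group and 0.00651 FPKM in control, and its locus overlaps that of INSIG1, with which reads can be shared. POU4F1, a gene of the red nucleus and habenula, stood at 0.772 FPKM in the antibiotic group and 0.0622 FPKM in control. PITX3, a gene of midbrain dopamine neurons, stood at 0.489 FPKM in the antibiotic group and 0.0699 FPKM in control. LMX1A, an early dopamine neuron gene named here after its value was seen, stood at 0.282 FPKM in the antibiotic group and was listed at 0 in control.

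None of these 6 differences was called, and neither EN1 nor LMX1B had an unadjusted p under 0.05 in the authors' table. Of the tested features with values above 0 in both groups, 15 were at least 16-fold higher in the antibiotic group, and 8 of these (53.3%) were called. Of the 15, 6 had an antibiotic value under 5 FPKM, EN1 among them. Of those 6, 0 were called by the authors' q or had an unadjusted p under 0.05. These limits of fold and level were not planned beforehand. With values above 0 in both groups, 9 tested features, LMX1B among them, were at least 4-fold higher with an antibiotic value under 1 FPKM. Of these 9, 2 were called and 3 had an unadjusted p under 0.05, and these limits too were not planned. The defining genes of monoamine neurons of the midbrain and raphe were higher beside them. SLC6A4, TPH2 and SLC6A3, the 3 listed markers, all rose, beside 19.0% of all tested features. None was at 0, and their summed level was 40.7 FPKM in the antibiotic group and 0.815 FPKM in control. This list was chosen with earlier results of these data known, so its count is a description only. Whether these markers and the 6 homeobox genes came from the same cells, or from the same piglets, was not tested, because no column holds the values of a single library.

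HOX genes, which mark the hindbrain and spinal cord, were near the floor of the table. Only HOXD1 of the 12 had been tested, and it stood at 1.79 FPKM in the antibiotic group and 1.68 FPKM in control (q = 0.851 in the authors' table). The other 11 summed to 0.514 FPKM in the antibiotic group and 0.130 FPKM in control. HOXC8 was the highest of them, at 0.208 FPKM in the antibiotic group and listed at 0 in control. HOXA10 followed at 0.125 FPKM in the antibiotic group and was also listed at 0 in control. HOXA5 was listed at 0 in the antibiotic group and at 0.0528 FPKM in control. Altogether 3 HOX genes were listed at 0 in the antibiotic group and 7 in control.

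Zeros were more common in the control column across the table. Among all 36 untested homeobox genes, 3 were listed at 0 in the antibiotic group (8.33%) and 17 in control (47.2%). Over all 3639 untested features these shares were 6.92% in the antibiotic group and 23.1% in control.

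Genes that are active in several brain regions were the most abundant members. Of 17 members 16 had been tested. Of these 3 rose (18.8%, beside 19.0% of all tested features), 2 fell (12.5%, beside 22.2%) and 11 did not pass. The median log2 of the tested members was 0.17. POU3F3, a POU factor of cortical and hypothalamic neurons also called BRN1, rose to 30.3 FPKM in the antibiotic group, against 14.6 FPKM in control (2.08-fold, q = 0.000625 in the authors' table). POU3F4, its close relative on the X chromosome, rose to 1.49 FPKM in the antibiotic group, against 0.442 FPKM in control (3.38-fold, q = 0.0424). The other POU3F genes did not pass. POU3F2, needed for oxytocin and vasopressin neurons in mouse, stood at 5.11 FPKM in the antibiotic group and 5.81 FPKM in control (q = 0.549).

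IRX3, an Iroquois gene active from the thalamus to the hindbrain and in the hypothalamus, rose to 3.57 FPKM in the antibiotic group, against 1.80 FPKM in control (1.98-fold, q = 0.0217 in the authors' table). IRX6, of the same gene cluster, stood at 8.96 FPKM in the antibiotic group and 8.22 FPKM in control (q = 0.675). The only other IRX row, IRX4, had not been tested and stood at 0.0889 FPKM in the antibiotic group and was listed at 0 in control.

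The PBX genes encode partners that bind DNA together with HOX and other homeobox proteins. PBX3 fell to 8.65 FPKM in the antibiotic group, against 14.3 FPKM in control (1.65-fold lower, q = 0.00114 in the authors' table). PBX2 was the most abundant homeobox gene of all 70, with 34.1 FPKM in the antibiotic group and 24.9 FPKM in control, and it did not pass (q = 0.0778). PBX3 was thus the only called gene of the 4 PBX genes, while PBX2 lay on the higher side and short of the threshold. Whether PBX3 differed from the others in its response was not tested.

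ZFHX4, a large zinc finger homeobox gene, fell to 2.07 FPKM in the antibiotic group, against 3.78 FPKM in control (1.82-fold lower, q = 0.000336 in the authors' table). ZFHX3, its relative that sets clock gene expression in the suprachiasmatic nucleus of the mouse, stood at 6.37 FPKM in the antibiotic group and 6.74 FPKM in control (q = 0.719). NKX2-2, a gene of ventral progenitors and of oligodendrocyte precursors, stood at 16.9 FPKM in the antibiotic group and 14.5 FPKM in control (q = 0.473). It lies 73.1 kb from NKX2-4, which fell 8.38-fold. The 8 other genes of several regions that did not pass had log2 values between -0.60 and 0.80 and q between 0.121 and 0.756.

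Genes known mainly from the retina, the pituitary or tissues outside the brain were scarce. Of 15 members 2 had been tested, and neither passed. NKX2-8 stood at 2.47 FPKM in the antibiotic group and 1.16 FPKM in control (q = 0.112), and MSX1, a gene of the dorsal midline, at 1.46 and 1.10 FPKM, in the same order (q = 0.436 in the authors' table). Among the 13 untested genes, MSX2 stood at 0.411 FPKM in the antibiotic group and was listed at 0 in control. POU1F1, the pituitary factor, stood at 0.0139 FPKM in the antibiotic group and was listed at 0 in control.

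**Figure D3:**
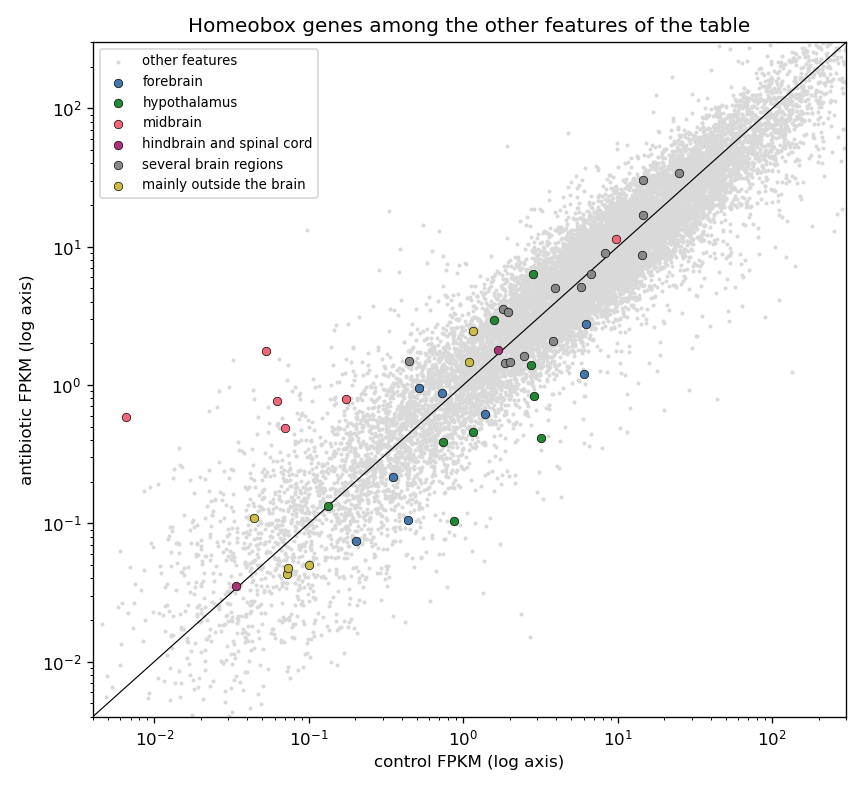
Antibiotic against control FPKM on log axes for the homeobox genes described here with values above 0 in both groups (coloured by regional group) and for the other features of the table (grey), with the line of equal values and axes limited to the range of the homeobox genes. Most hypothalamic and forebrain points lie below the line, and EN1, EN2, LMX1B, PITX3 and POU4F1 lie far above it at the low end of the control axis.

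The calls were also read by level. Of the 34 tested homeobox genes, 7 had a mean of both groups under 1 FPKM, 18 a mean of 1 to 5 FPKM and 9 a mean of 5 FPKM or more. Called were 2 of the 7, 9 of the 18 and 2 of the 9. Over all tested features the shares called in these classes were 19.4%, 30.8% and 47.6%. The genes at 1 to 5 FPKM, among them FEZF1, ISL1, LHX1, LHX2 and DLX1, were called in 50.0% of cases, and the abundant ones, such as PBX2, OTX2 and NKX2-2, in 22.2%. These classes were chosen after the values were seen. Tested homeobox genes also had short loci, with a median of 6908 bases against 30050 bases over all tested features, and the part of locus length in the calls was not tested.

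Other regional transcription factors without a place among the 70 genes were read from lists chosen with earlier results of these data known. Their counts are descriptions. In the hypothalamic list, 11 of 13 symbols had a row and 5 of these had been tested. Of the 5, 1 rose (20%, beside 19.0% of all tested features), 2 fell (40%, beside 22.2%) and 2 did not pass. The median log2 of the tested members was -0.12. ARNT2, needed for neuroendocrine neurons of the paraventricular nucleus, rose to 78.4 FPKM in the antibiotic group, against 35.0 FPKM in control (q = 0.000336 in the authors' table). NR2F2 fell to 8.39 FPKM in the antibiotic group, against 15.3 FPKM in control (q = 0.000336), and NR2F1 fell to 62.1 FPKM in the antibiotic group, against 84.3 FPKM in control (q = 0.0293). SIM1, NR5A1 and OTP, which specify paraventricular and ventromedial neurons, had not been tested. SIM1 stood at 0.0904 FPKM in the antibiotic group and 0.391 FPKM in control, NR5A1 at 0.113 and 0.414 FPKM and OTP at 0.756 and 1.33 FPKM, in the same order. The tested genes that did not pass were NHLH2, at 6.16 and 2.34 FPKM (q = 0.0793), and TBX3, at 1.16 and 1.26 FPKM (q = 0.726). BSX, untested, stood at 0.119 and 0.121 FPKM. Of all 11 genes with a row, 2 had the higher value in the antibiotic group (18.2%, beside 50.1% of all features) and 9 in control.

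In the telencephalic list, 5 of 10 symbols had a row and 2 had been tested. Of the tested genes 1 fell (50%, beside 22.2% of all tested features) and 1 did not pass. In the midbrain and raphe list, 9 of 11 symbols had a row and 6 had been tested. Of the 6, 3 rose (50%, beside 19.0% of all tested features), none fell (beside 22.2%) and 3 did not pass. The median log2 of the tested members was 0.81. The rises were those of GATA3, TAL1 and PAX5, and GATA3, needed for serotonin neurons of the raphe, stood at 2.89 FPKM in the antibiotic group and 1.03 FPKM in control (q = 0.000336). The 3 tested genes that did not pass were GATA2, NR4A2 and SOX14. NR4A2 stood at 7.30 FPKM in the antibiotic group and 7.92 FPKM in control (q = 0.688). SOX14 stood at 2.22 and 2.10 FPKM (q = 0.849) and GATA2 at 1.64 and 0.958 FPKM (q = 0.0905), in the same order. FOXA1, a floor plate gene of dopamine neurons, had not been tested and stood at 0.746 FPKM in the antibiotic group and 0.150 FPKM in control.

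**Figure D4:**
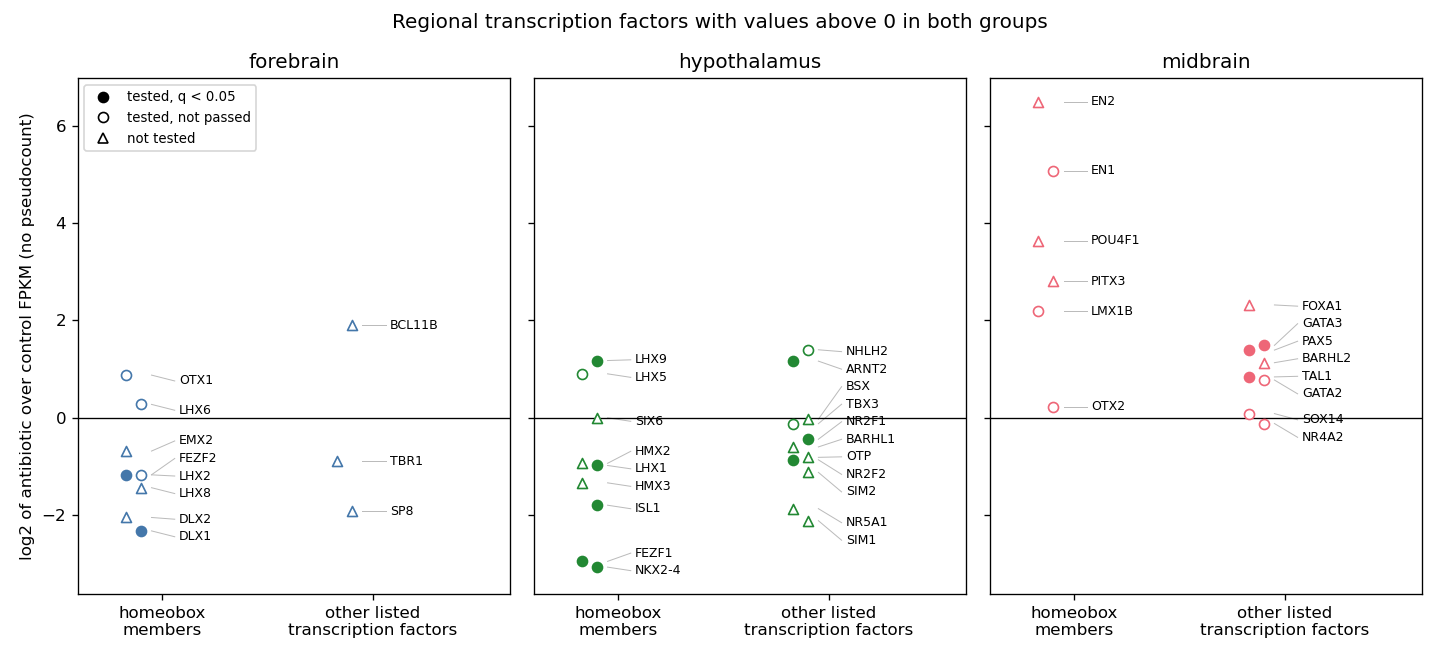
The log2 of antibiotic over control FPKM, with no pseudocount, for the homeobox genes described here (left column of each panel) and for other listed transcription factors of the same region (right column), with circles for tested genes, filled where q was under 0.05, and triangles for untested ones. LMX1A and FOXA2, listed at 0 in control, are not drawn. The tested midbrain homeobox gene that fell is also not drawn, and of those drawn EN2 and EN1 lie highest.

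Marker genes of the labelled tissue, peptide genes and the histamine synthesis gene HDC, were read as a check. Of 15 marker symbols of hypothalamic neurons 14 had a row and 12 had been tested. Of the 12, 5 fell (41.7%, beside 22.2% of all tested features), none rose (beside 19.0%) and 7 did not pass. The summed level of the 14 was 437.2 FPKM in the antibiotic group and 1094 FPKM in control, and KISS1 was listed at 0 in control. AVP, the vasopressin gene, stood at 181.3 FPKM in the antibiotic group and 210.6 FPKM in control and did not pass (q = 0.461 in the authors' table), so hypothalamic transcripts were present in both groups. Those that fell, beside FEZF1, NKX2-4, ISL1 and LHX1, were OXT, PMCH, GAL, SST and HDC, and PMCH, the melanin-concentrating hormone gene, stood at 18.6 FPKM in the antibiotic group and 281.6 FPKM in control (q = 0.000336 in the authors' table). POMC, at 4.34 FPKM in the antibiotic group and 2.55 FPKM in control (q = 0.0938), and AGRP, at 3.09 FPKM in the antibiotic group and 0.211 FPKM in control (q = 0.302), lay on the higher side and did not pass. These 7 genes, outside the naming rule, were chosen after their values were seen. The part of the marker genes in the falls of the homeobox genes was not tested.

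In the coordinates of the deposited table, FEZF1 spans chromosome 18, 26478266 to 26482020, and NKX2-4 spans chromosome 17, 33150308 to 33153209. DLX1 spans chromosome 15, 87612704 to 87617606, and LHX9 chromosome 10, 25350189 to 25374367. EN1 spans chromosome 15, 28041852 to 28046935, and POU3F3 chromosome 3, 52014455 to 52019804. These are whole loci with exons and introns, and the pig build susScr3, listed in the submitters' processing notes, is not tied to them there.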

How the data were processed

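The authors deposited a workbook whose first sheet holds, per the file headers, an FPKM per gene and group, a log2 fold of antibiotic over control with no pseudocount, a p-value and a q-value. The deposited test statistic, a score, was not used. Bowtie 0.12.2 and the builds susScr3 and mm8 are named, without a role, in the submitters' processing notes. Whether counting used strand is not stated in the sources used here. Per the labels' protocols, RNA was extracted with Trizol and libraries were made with an Illumina TruSeq kit.

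After 6 blank rows were left out, 16991 features remained, of which 13352 had the authors' status OK and the rest were untested. All 7 libraries enter through the 2 group columns alone, so limma, which had been planned for values per library, could not be run. The planned printing of protein sequences was not done. Members were matched by row name, and 54 of 70 Ensembl IDs were found in the gene name table, each with the same symbol. Some genes enter the counts but are not reported here and not drawn. Members, regional groups and 15 lists of other genes were chosen with earlier results of these data known. All other tested members were named, except that in groups with over 10 tested genes these were the called ones and the 3 most abundant others, with the 3 highest untested members per group. For symbols with several rows in a list, the tested row with the highest mean FPKM was used. Alternatives changed the q, the minimum FPKM, the pseudocount and the scaling. The scaling code was tested on simulated data. Tables were handled with Python 3.11.15 and pandas 2.3.3.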

Additional observations from a re-analysis of the deposited data

How the results depend on the processing

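No paired analysis was possible because the table holds no value per library, and for the same reason no library could be left out. The 4 rises and 9 falls kept their direction after upper quartile and quantile scaling, and all 34 tested genes kept theirs under both scalings and with 0.1 or 1 FPKM added. At a q of 0.01 there were 2 rises and 8 falls of 34 tested, beside 12.8% risen and 15.5% fallen of all tested features. Among genes with 5 FPKM in a group there were 2 rises and 4 falls of 14 tested. Over all tested features at that level, 22.0% rose and 26.4% fell. A median fold was taken as moved where it changed by over 1.5 times, as no replicate spread exists. With 1 FPKM added, the median log2 was -0.56 for forebrain, -0.70 for hypothalamus and 0.41 for midbrain genes. For midbrain genes it was 2.81 over tested and untested genes above 0 in both groups, and 0.23 over tested genes with 1 FPKM in a group, where LMX1B drops out. Over tested and untested genes together the median turned to -0.041 for all homeobox genes and to -0.44 for those known mainly outside the brain. The other medians moved less. Chosen after seeing the data, the count without genes known mainly outside the brain was 4 rises and 9 falls of 32 tested. With the chromosome 7 TTF1 row there were 10 falls of 35 tested. Both stand beside 19.0% risen and 22.2% fallen of all tested features. Most homeobox genes lay under 5 FPKM, and without library depths no limit of detection could be given.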

Other observations

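The thalamic list had 4 tested genes, of which FOXP2 fell (2.28 FPKM in the antibiotic group, 4.56 FPKM in control, q = 0.00448 in the authors' table) and 3 did not pass, among them TCF7L2 at 40.1 and 42.0 FPKM. Of 10 hindbrain symbols without homeobox members 3 had a row, and the only tested one did not pass. PHOX2A and PAX2 were listed at 0 in control and stood at 0.0577 and 0.135 FPKM in the antibiotic group.

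Marker genes of other cells, from lists chosen with earlier results of these data known, were read beside the homeobox genes. Over all tested features 19.0% rose and 22.2% fell. CHAT, SLC5A7 and PRPH, markers of cholinergic and motor neurons, all rose (summed 14.6 FPKM in the antibiotic group, 1.16 FPKM in control), while ISL1, which such neurons also use, fell. Among oligodendrocyte markers MAG and CNP rose and 3 did not pass, and among precursor markers CSPG4 and GPR17 rose and PDGFRA did not pass, beside NKX2-2, which did not pass. Meningeal and fibroblast markers fell, all 3 of 3 (27.5 FPKM summed in the antibiotic group, 82.5 FPKM in control), as did both matched microglial markers, CX3CR1 and C1QA. Of 4 listed astrocyte symbols 2 had a row, of which GFAP rose and AQP4 fell, and no marker of tanycytes alone was listed. Of 4 matched anterior pituitary hormone genes 1 had been tested and did not pass, and PRL stood at 0.0568 FPKM in the antibiotic group and 0.531 FPKM in control.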
